A study of Mus musculus with 6 samples.

Results

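The genes described here are 34 genes that mark the 3 lineages of lymphocytes, 14 of T cells, 8 of B cells and 12 of natural killer (NK) cells, out of the 20284 gene symbols that could be given to the arrays. They were chosen by name, with earlier results of these data known, and the transcript accession of each probe was matched to its symbol. They are represented by 43 of the 55681 probes other than controls. Of the 34 genes, 31 were detected well above background somewhere among the arrays, and 28 had a probe detected in this way on all 6. The T cell signalling chain *Cd247*, the B cell receptor chain *Cd79a* and the NK receptor *Klrk1* were not well above background on any array, so no level is given for them.

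Livers, ovaries and uteri were taken from immature female CD-1 mice, an outbred stock, at an age labelled 24 days. The mice had received fluorene-9-bisphenol (BHPF), a substitute for bisphenol A in plastics, by oral gavage at 50 mg per kg body weight per day for 3 days, or the vehicle, peanut oil. RNA was labelled with Cy3 and hybridized to one-colour Agilent arrays, and each of the 6 groups (control and BHPF, in each tissue) was 1 array of 1 pool of 3 mice. There was no array of another pool, so differences between pools have no replicate check, no test within a tissue was possible, and precision is limited by the number of arrays. A fit of an effect shared by liver, ovary and uterus was not run.

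The level of a probe is the log2 of its background-subtracted intensity minus the 75th percentile of its array, and the log2 ratio of a gene is the BHPF level minus the control level within a tissue, averaged over its probes. A gene was evaluated in a tissue where either array showed it well above background, and a ratio whose dim side was not well above background is a bound. Genes were called lower or higher where the arrays differed by at least 2-fold. From the spread between spots of 1 probe, a log2 ratio had an SD of 0.16, which does not include the variation between pools. Between 61.3% and 74.5% of the probes were well above background on an array. The control arrays and the BHPF arrays lay in different rows of 1 slide, so slide row and treatment cannot be told apart. All 12 ovary marker genes were well above background on both ovary arrays and all 12 uterus marker genes on both uterus arrays. On the array deposited as BHPF uterus, all 12 hepatocyte genes were at least 2-fold higher than on the control uterus array. The origin of these transcripts was not tested. In the authors' table of processed values the uterus columns held each other's scanner values. The scanner files are used here as labelled. If the headings of the table were the right ones, every uterus ratio below would take the opposite sign. With the scanner labels the lowest ratio of all uterus genes was −3.72, for the oestrogen-responsive *Sprr2b*, and the highest was 5.94, for the cytochrome P450 gene *Cyp2c50*.

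T cells recognize antigen with a receptor whose signal passes through the CD3 chains and the kinases Lck and Zap70, and the coreceptors CD4 and CD8 separate helper from cytotoxic cells. B cells carry a membrane antibody that signals through CD79, with Blnk as an adaptor and CD22 and CD72 as inhibitory coreceptors. NK cells kill by releasing perforin and granzymes, are controlled by activating and inhibitory receptors, and form a large population in the liver and in the uterus. Fcer1g, Tyrobp, Rac2 and Ptpn6 serve NK receptor signalling but are also made by macrophages and neutrophils, so these 4 genes are described apart from the 8 receptor and granule genes. In RNA of a whole tissue, fewer cells of a type and less RNA per cell cannot be told apart.

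Promoter windows of 300 bases, from 250 before to 50 after the transcription start, were given by RefSeq (GRCm38.p6) for 23 of the 34 genes. Where measured, the NK receptor and granule genes shared a direction of difference within each tissue, though not under every alternative in processing. A link of this direction to sequence was not tested. The windows below are shown for that direction and for a shared sequence feature, and because *Cd3g* and *Cd3d* are neighbours. They read 5′ to 3′ on the strand of the gene, and capitals mark the motifs found on either strand, namely the RUNX motif TGTGGT, the ETS motif GAGGAA, the E-box CAGCTG, the T-box motif AGGTGTGA and the octamer ATTTGCAT.
Ncr1 (chr7:4337465-4337764, plus strand): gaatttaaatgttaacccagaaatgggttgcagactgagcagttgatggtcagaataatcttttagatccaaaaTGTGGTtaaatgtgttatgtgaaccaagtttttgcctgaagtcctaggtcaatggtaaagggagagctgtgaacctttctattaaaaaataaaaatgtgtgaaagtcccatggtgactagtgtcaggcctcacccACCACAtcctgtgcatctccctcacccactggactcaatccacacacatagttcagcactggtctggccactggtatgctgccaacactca
Gzmb (chr14:56262285-56262584, minus strand): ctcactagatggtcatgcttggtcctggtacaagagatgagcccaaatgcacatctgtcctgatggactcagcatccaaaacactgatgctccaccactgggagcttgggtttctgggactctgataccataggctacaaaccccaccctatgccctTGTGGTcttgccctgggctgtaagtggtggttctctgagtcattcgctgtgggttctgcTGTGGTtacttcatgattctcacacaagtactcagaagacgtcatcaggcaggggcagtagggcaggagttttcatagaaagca
Prf1 (chr10:61297586-61297885, plus strand): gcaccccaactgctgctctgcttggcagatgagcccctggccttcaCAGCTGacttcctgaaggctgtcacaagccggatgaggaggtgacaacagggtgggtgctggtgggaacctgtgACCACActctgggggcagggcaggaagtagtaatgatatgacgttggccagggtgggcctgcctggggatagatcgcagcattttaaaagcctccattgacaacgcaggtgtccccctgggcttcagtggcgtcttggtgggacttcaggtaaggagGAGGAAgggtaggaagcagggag
Nkg7 (chr7:43436888-43437187, plus strand): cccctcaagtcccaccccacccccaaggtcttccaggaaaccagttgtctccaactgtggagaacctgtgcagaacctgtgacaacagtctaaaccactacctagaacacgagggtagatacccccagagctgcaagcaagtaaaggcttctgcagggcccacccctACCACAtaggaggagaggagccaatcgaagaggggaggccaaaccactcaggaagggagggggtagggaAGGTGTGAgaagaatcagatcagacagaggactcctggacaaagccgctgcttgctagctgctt
Cd3g (chr9:44980382-44980681, minus strand): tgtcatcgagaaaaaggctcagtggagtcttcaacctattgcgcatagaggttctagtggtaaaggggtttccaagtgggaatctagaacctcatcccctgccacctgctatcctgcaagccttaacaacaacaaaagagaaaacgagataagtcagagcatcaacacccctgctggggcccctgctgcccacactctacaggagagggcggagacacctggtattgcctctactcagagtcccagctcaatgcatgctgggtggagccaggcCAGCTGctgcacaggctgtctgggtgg
Cd3d (chr9:44981536-44981835, plus strand): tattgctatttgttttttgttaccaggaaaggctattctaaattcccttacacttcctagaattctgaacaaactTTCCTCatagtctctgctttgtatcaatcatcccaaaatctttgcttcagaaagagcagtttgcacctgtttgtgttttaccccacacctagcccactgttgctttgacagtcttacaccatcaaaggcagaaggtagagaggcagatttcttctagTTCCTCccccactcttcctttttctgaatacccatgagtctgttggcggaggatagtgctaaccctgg
Blnk (chr19:40994172-40994471, minus strand): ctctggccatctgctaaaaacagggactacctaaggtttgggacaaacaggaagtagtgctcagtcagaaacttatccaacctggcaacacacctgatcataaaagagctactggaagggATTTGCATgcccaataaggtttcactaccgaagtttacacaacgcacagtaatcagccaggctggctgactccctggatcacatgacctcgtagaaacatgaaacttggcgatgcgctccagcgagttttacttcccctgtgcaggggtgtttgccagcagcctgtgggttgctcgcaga

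The RUNX letters occurred in 7 of 7 windows of NK receptor and granule genes, in 1 of 8 windows of T cell genes, 1 of 6 of B cell genes and 1 of 2 of the signalling genes. They occurred in 16.9% of the windows of all 27025 genes with one. The 7 windows of NK receptor and granule genes include that of *Klrk1*, which was not measured, while *Klrd1* had no window. The windows of *Ncr1* and *Gzmb* each held the letters more than once. The ETS letters occurred in 6 of 8 T cell windows against 28.3% of all windows. The octamer was found in *Blnk* and *Vpreb3*, 2 of 6 B cell windows, against 1.75% of all windows, and the T-box letters in *Nkg7* alone among the 23, against 1.27%. The E-box was found in 4 of the 23 windows against 16.1% of all, and the EBF1 motif in *Cd22* alone, against 0.914%. The starts of *Cd3g* and *Cd3d* lie 1355 bases apart on chromosome 9 and run in opposite directions. A match describes the letters in the window and is not a site of binding.

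Among the control arrays the lineages differed in where their genes were highest. The NK receptor and granule genes were highest in the uterus in 7 of 7 cases and lowest in the ovary in 6 of 7. With the 50th percentile in place of the 75th, *Gzma* had nearly the same level in liver and uterus and 6 of 7 were highest in the uterus. The control levels of *Ncr1*, the activating NK receptor NKp46, were −3.38 in liver, −3.48 in ovary and −0.94 in uterus. *Ncr1* was therefore set apart by the uterus, with liver and ovary differing by less than the SD between spots at this scaling. The control levels of *Gzmb*, the serine protease granzyme B, were −1.94 in liver, −4.29 in ovary and −1.27 in uterus. *Gzmb* was set apart by the ovary instead. The 4 signalling genes were all highest in liver and lowest in ovary.

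Of the 13 T cell genes that were measured, 8 were highest in the control liver and 10 were lowest in the control ovary, and with the 50th percentile 11 were highest in liver. *Zap70*, the kinase that binds the phosphorylated CD3 chains, had control levels of 1.49 in liver, −2.88 in ovary and −2.05 in uterus. *Icos*, a costimulatory receptor of activated T cells, had control levels of −1.20 in liver and −3.78 in uterus, and was well above background in ovary with 1 of its 2 probes. Both genes stood far higher in liver than in the other tissues. Of the 7 B cell genes 3 were highest in liver, 2 in ovary and 2 in uterus, and with the 50th percentile 5 were highest in liver and 1 in each of the others. *Ms4a1*, which encodes CD20, had control levels of −2.29 in liver, −2.07 in ovary and −4.43 in uterus, and was thus lowest in uterus. *Vpreb3*, a gene of B cell precursors, had levels of −1.65, −0.18 and −1.99 and was highest in ovary. The control levels of *Cd72* lay within 0.12 of each other over the tissues, less than the SD between spots at this scaling. *Cd22*, measured by 1 probe, had levels of 3.19, 2.74 and 3.10, the highest of the B cell genes in each tissue. What its probe measures besides B cells was not tested.

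**Figure D1:**
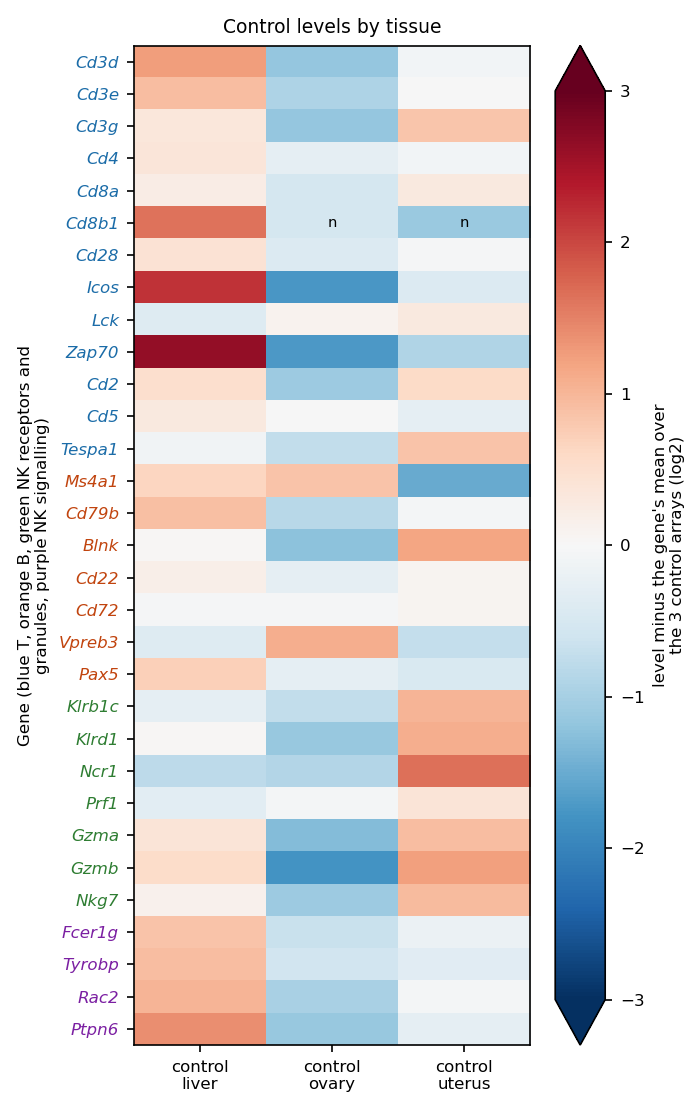
Control levels of the 31 measured lymphocyte genes in liver, ovary and uterus, each as the difference (log2) from the mean of that gene over the 3 control arrays, with 1 array per tissue. Gene names are coloured by lineage and n marks a level not well above background. The NK receptor and granule genes (green) are highest in the uterus in 7 of 7 cases, and the 4 NK signalling genes (purple) are highest in the liver in all 4.

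In the liver, the CD20 gene *Ms4a1* and the GTPase gene *Rac2* fell with BHPF, while the NK receptor and granule genes and most T cell genes lay above 0. At least 2-fold lower were 2 of the 31 evaluated genes, *Ms4a1* and *Rac2*, against 1.54% of all 15530 genes evaluated. At least 2-fold higher was 1 gene, *Tespa1*, against 3.2% of all genes. The median log2 ratio was 0.25 over 13 T cell genes, −0.27 over 7 B cell genes, 0.59 over 7 NK receptor and granule genes and −0.62 over the 4 NK signalling genes, beside 0.00 over all genes. Below 0 were 2 of 13 T cell genes, 4 of 7 B cell genes, 0 of 7 NK receptor and granule genes and 4 of 4 NK signalling genes, against 47.6% of all genes, and above 0 were 21 of the 31 members, against 49.7%. These signs depended on the scaling. With the 50th percentile 83.0% of all genes lay below 0, as did 8 of 13 T cell genes, 6 of 7 B cell genes, 2 of 7 NK receptor and granule genes and 4 of 4 signalling genes.

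The NK receptor and granule genes of the liver had ratios from 0.19 to 0.74, none of which reached 2-fold. *Ncr1* had a level of −3.38 with the vehicle and −2.71 with BHPF, a ratio of 0.67. *Gzmb* had levels of −1.94 and −1.35, a ratio of 0.59. *Nkg7*, a granule membrane protein of cytotoxic cells, had levels of −0.41 and 0.19, and its 2 probes gave ratios of 0.45 and 0.75. These genes were higher on the BHPF array by more than 2 SD between spots. *Prf1*, which encodes perforin, and *Gzma*, which encodes granzyme A, had smaller ratios of 0.19 and 0.20, within 2 SD between spots. With the 50th percentile the ratio of *Gzma* was −0.11, as that scaling moved the median of all liver genes to −0.30. *Klrd1*, the CD94 chain of NK receptors, had a ratio of 0.42, and the NK1.1 gene *Klrb1c* one of 0.74 that is partly a bound.

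The 4 signalling genes of the liver all lay below 0. *Rac2*, a GTPase of blood cells, had liver levels of 2.42 in the control and 1.22 with BHPF and fell 2.29-fold. *Ptpn6*, the phosphatase SHP-1 that carries inhibitory signals, had levels of 2.40 and 1.74, a ratio of −0.66. *Fcer1g*, an adaptor of Fc and NK receptors, had a ratio of −0.57, and *Tyrobp*, the adaptor DAP12, one of −0.40. All 4 were lower on the BHPF array by more than 2 SD between spots. The median of the receptor and granule genes exceeded that of the signalling genes by 1.21, and by 0.96 to 1.21 over the alternatives in processing. The same difference was 0.57 in ovary and 0.29 in uterus, where the genes common to leukocytes had medians of −0.37 and 0.06. In the liver, other leukocyte genes were mostly lower on the BHPF array. Of 18 neutrophil genes 13 fell at least 2-fold. Their median was −1.82, with a log2 summed level of 7.01 on the control and 6.13 on the BHPF array, and 13 of 14 genes common to leukocytes lay below 0, with a log2 summed level of 4.68 and 3.98. None of the 14 leukocyte genes was below background on either liver array. The macrophage genes of the liver had a median of −0.17 and log2 summed levels of 6.63 and 6.35. Among them *Marco* fell by 1.85 and *Adgre1* by 1.08. *Cd163* rose by 1.27, from a control level of −5.35 that lay close to the lowest level called well above background there, −5.62. The complement gene *C1qa* had a ratio of −0.01, *Lyz2* of −0.11 and the Kupffer cell genes *Clec4f* and *Vsig4* of 0.22 and 0.28. The part of these cells in the levels of the 4 signalling genes was not tested.

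Of the T cell genes of the liver, *Tespa1*, a gene of T cell receptor signalling in thymocytes, rose from −5.30 on the control array to −2.33 on the BHPF array, a ratio of 2.97 from 1 probe that was 2.05 with normexp background correction. The control level of *Tespa1* was close to the lowest level called well above background there, −5.62. *Cd28*, the costimulatory receptor, had levels of −3.09 and −2.28, a ratio of 0.81. The CD3 genes had ratios of 0.24 (*Cd3d*), 0.35 (*Cd3e*) and 0.15 (*Cd3g*). *Cd4* had a ratio of 0.46 and *Cd8a* one of 0.25, while *Cd8b1* was well above background on the control liver array only, with a bound of −0.04. Apart from *Cd8b1*, *Zap70* was the single T cell gene below 0, at −0.26. The remaining ratios were 0.42 for the adhesion receptor *Cd2*, 0.26 for *Cd5*, 0.15 for *Lck* and 0.11 for *Icos*. With the 50th percentile the median of the T cell genes was −0.07, while the median of all liver genes was −0.30.

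The B cell genes of the liver lay on both sides of 0. *Ms4a1* had liver levels of −2.29 in the control and −3.42 with BHPF and fell 2.19-fold. With normexp its ratio was −0.82, short of 2-fold. *Blnk* had levels of 0.34 and −0.54, a ratio of −0.88 that passed 2-fold with normexp (−1.11) and with the 50th percentile (−1.20). *Cd79b*, a signalling chain of the B cell receptor, had levels of 0.57 and −0.26, a ratio of −0.82. *Cd72* had a ratio of −0.27 and *Cd22* one of 0.22, while *Vpreb3* had levels of −1.65 and −0.92, a ratio of 0.73. *Pax5*, the transcription factor that fixes the B cell fate, had a ratio of 0.10. The median of the T cell genes exceeded that of the B cell genes by 0.52, and by 0.35 to 0.65 over the alternatives.

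**Figure D2:**
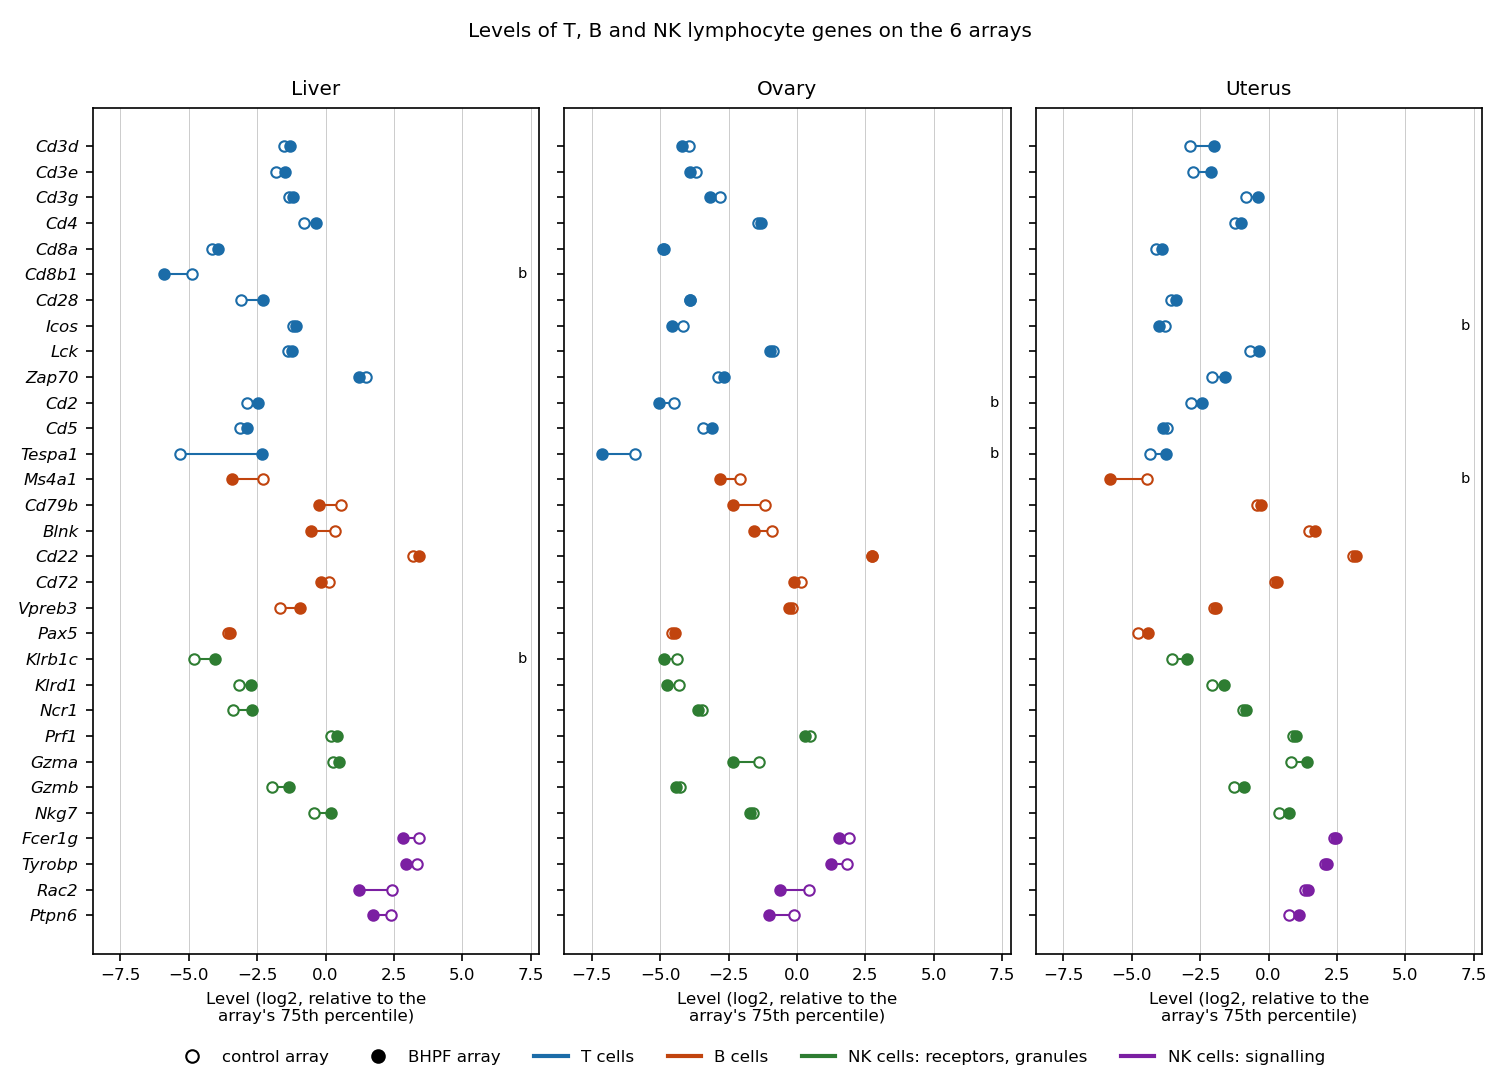
Levels (log2, relative to the 75th percentile of the array) of the lymphocyte genes evaluated in each tissue, with the control array as open and the BHPF array as filled circles, 1 array each, coloured by lineage. The letter b marks a ratio that is a bound. In liver *Rac2* and *Ms4a1* lie lower and *Tespa1* higher with BHPF, in ovary *Rac2* and *Cd79b* lie lower, and in uterus most filled circles lie to the right of the open ones.

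In the ovary, the 11 measured NK genes lay below 0, the B cell receptor chain gene *Cd79b* and *Rac2* fell with BHPF, and the T cell genes went both ways. At least 2-fold lower were 2 of the 30 evaluated genes, *Cd79b* and *Rac2*, against 0.617% of all 16862 genes evaluated, and 0 were at least 2-fold higher, against 0.474%. Below 0 were 11 of 11 NK genes, 5 of 7 B cell genes and 6 of 12 T cell genes, against 46.2% of all genes, and above 0 were 7 of the 30 members, against 51.6%. The median log2 ratio was −0.17 over the NK receptor and granule genes, −0.74 over the signalling genes, −0.26 over the B cell genes and −0.05 over the T cell genes, beside 0.01 over all genes.

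Among the NK receptor and granule genes of the ovary, *Gzma* differed most. *Gzma* had a level of −1.41 on the control ovary array and −2.33 on the BHPF array, a ratio of −0.92 that lay between −0.95 and −0.92 over the alternatives. *Klrb1c* and *Klrd1* each had a ratio of −0.46. The other 4 genes, *Ncr1*, *Prf1*, *Gzmb* and *Nkg7*, had ratios between −0.17 and −0.09, within 2 SD between spots. The sign of *Gzmb* turned with normexp (0.16) and that of *Nkg7* with its brightest probe (0.05). *Rac2* had levels of 0.44 and −0.62 and fell 2.08-fold, a ratio that was −0.98 with normexp. *Ptpn6* had levels of −0.12 and −1.02, a ratio of −0.90, *Tyrobp* had a ratio of −0.58 and *Fcer1g* one of −0.37. As in the liver, the neutrophil genes were lower, with a median of −1.06 over 16 genes and 8 of them at least 2-fold lower. Their log2 summed level was 4.07 on the control and 3.67 on the BHPF ovary array, and that of the genes common to leukocytes was 2.98 and 2.25. The macrophage genes had a median of −0.56 and log2 summed levels of 4.36 and 3.72. The adipocyte genes went the other way, with a median of 0.48, 6 of 7 above 0 and log2 summed levels of 1.86 and 2.15. The part of all these cells in the NK signalling genes and in the other lymphocyte genes of the ovary was not tested.

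*Cd79b* had a level of −1.16 on the control ovary array and −2.34 on the BHPF array and fell 2.27-fold, and with normexp its ratio was −0.92. *Ms4a1* had levels of −2.07 and −2.83, a ratio of −0.76, and *Blnk* had levels of −0.91 and −1.59, a ratio of −0.67. These 3 genes were thus the lowest of the B cell genes in both liver and ovary. *Cd72* had a ratio of −0.26, *Vpreb3* of −0.10, *Cd22* of 0.01 and *Pax5* of 0.13. The T cell genes lay between −0.46 and 0.31. *Cd3d*, *Cd3e* and *Cd3g* had ratios of −0.23, −0.25 and −0.35, *Icos* one of −0.42 and *Cd2* a bound of −0.46. *Cd5*, an inhibitory receptor, had a ratio of 0.31 and *Zap70* one of 0.20. *Lck*, *Cd4*, *Cd8a* and *Cd28* had ratios between −0.09 and 0.12. *Tespa1* was well above background on the control ovary array only and its ratio could not be bounded away from 0.

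**Figure D3:**
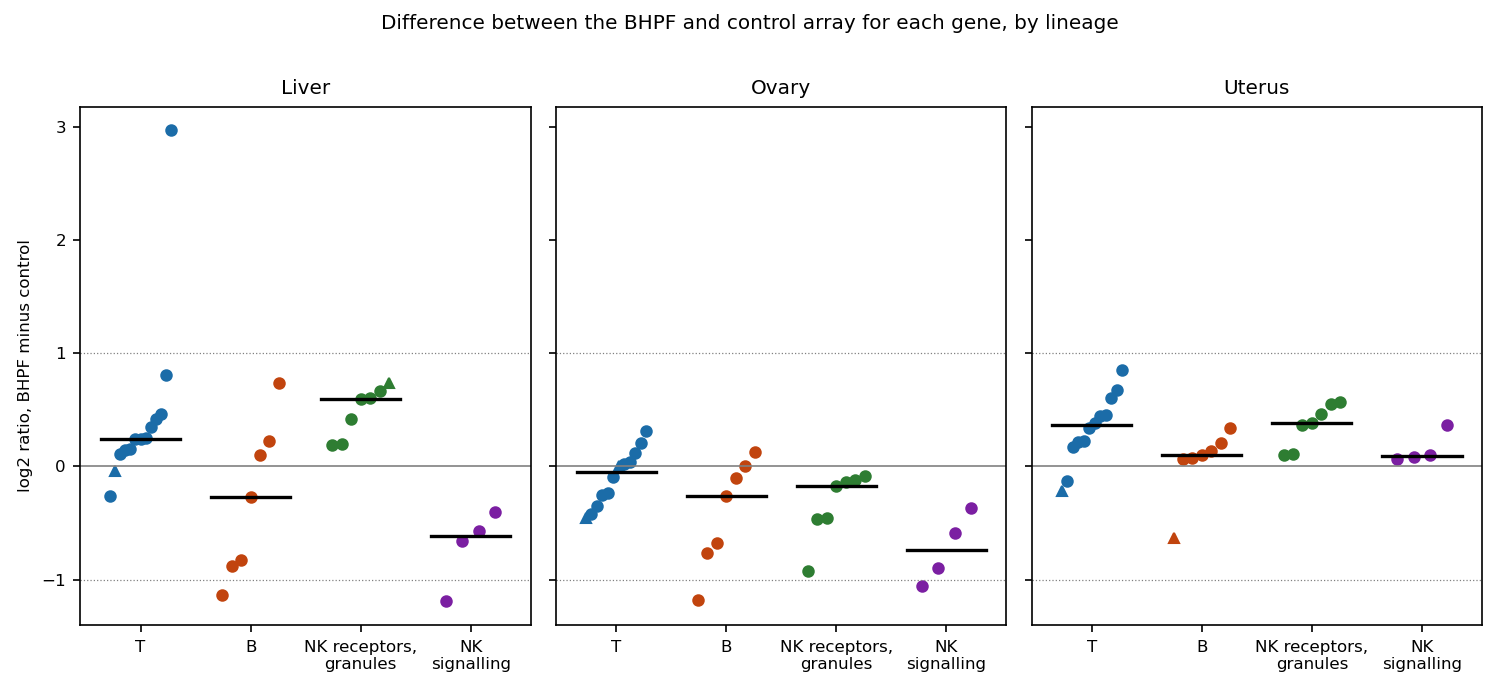
Log2 ratio (BHPF minus control) of each evaluated lymphocyte gene by lineage and tissue, with triangles for bounds, bars for the median of a lineage and dotted lines at 2-fold. In liver the NK receptor and granule genes lie above 0 (median 0.59) and the NK signalling genes below 0 (median −0.62), in ovary both lie below 0, and in uterus both lie above 0.

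In the uterus, most lymphocyte genes lay above 0 and none reached 2-fold. Of the 30 evaluated genes 0 were at least 2-fold lower, against 0.823% of all 16160 genes, and 0 were at least 2-fold higher, against 2.27%. Above 0 were 10 of 12 T cell genes, 6 of 7 B cell genes and 11 of 11 NK genes, against 50% of all genes, and below 0 were 3 of the 30 members, against 48.1%. With normexp 2 of the 11 NK genes lay below 0, and with the 50th percentile 1 did. The median log2 ratio was 0.37 over the T cell genes, 0.10 over the B cell genes, 0.39 over the NK receptor and granule genes and 0.10 over the signalling genes, beside 0.00 over all genes. Markers of other cells also differed between the uterus arrays. The erythroid genes had a median of 0.40, with 8 of 11 above 0 and log2 summed levels of 5.98 on the control and 6.25 on the BHPF array. The adipocyte genes had a median of −1.05, with 6 of 6 below 0 and summed levels of 2.05 and 0.63, and the neutrophil genes one of −0.47, with 12 of 17 below 0 and summed levels of 5.70 and 5.42. The part of these cells in the lymphocyte levels was not tested.

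*Cd3d* had a level of −2.86 on the control uterus array and −2.002 on the BHPF uterus array, a ratio of 0.86 that was the highest of the members. *Cd3e* had levels of −2.77 and −2.09, a ratio of 0.68, and *Cd3g* had levels of −0.82 and −0.37, a ratio of 0.45. The 3 CD3 chains, which form one complex, were thus all higher on the BHPF array by more than 2 SD between spots. *Tespa1* had a ratio of 0.61, *Zap70* of 0.46, *Cd2* of 0.39, *Lck* of 0.34, *Cd4* of 0.22, *Cd8a* of 0.21 and *Cd28* of 0.17. *Cd5* had a ratio of −0.13 and *Icos* a bound of −0.22. Among the NK genes, *Gzma* had levels of 0.84 and 1.41, a ratio of 0.57, *Klrb1c* had levels of −3.54 and −2.99 and *Klrd1* levels of −2.08 and −1.61. *Gzmb* and *Nkg7* had ratios of 0.39 and 0.36, while *Ncr1* and *Prf1*, with 0.10 and 0.11, differed by less than the SD between spots. Of the signalling genes *Ptpn6* had a ratio of 0.36 and the other 3 lay between 0.07 and 0.10. Of the B cell genes *Pax5* had a ratio of 0.34 and *Blnk* one of 0.21, *Cd22*, *Cd72*, *Vpreb3* and *Cd79b* lay between 0.07 and 0.14, and *Ms4a1* was well above background on the control uterus array only, with a bound of −0.64.

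Whether the hepatocyte transcripts on the BHPF uterus array came from liver RNA or from the uterus itself was not tested. Among the control arrays, 8 of 13 T cell genes and all 4 NK signalling genes were highest in liver. The other 5 T cell genes and all 7 NK receptor and granule genes were highest in uterus. Over the 12 hepatocyte genes, the excess of the BHPF over the control uterus array was a median of 8.70% of the control liver level, with a range from 4.59% to 15.6%, and on the ovary arrays it was 0.295%. Subtracting that share from every probe was tried in 3 forms, each made after the values of the one before it were seen. All 3 forms took the share from the control liver array. On the BHPF liver array the levels of all 4 NK signalling genes and of *Ms4a1* were lower, for *Rac2* 1.22 against 2.42. A subtraction of BHPF liver levels was not run, so the values below hold for control liver levels only. Without scaling the array again, the uterus medians were 0.19 for the T cell genes, −0.04 for the B cell genes and 0.08 for the NK genes, and the median of all genes was −0.17. With the array scaled again to its 75th percentile they were 0.38, 0.14 and 0.27. In both of these forms *Zap70*, *Icos* and *Ms4a1* were at least 2-fold lower, with a remainder near or below background. When dim remainders were treated as bounds the medians stayed at 0.38, 0.14 and 0.27 and *Zap70* alone was at least 2-fold lower, at −1.33. The value for *Zap70*, whose control level was far higher in liver than in uterus, therefore rests on the share assumed. With control liver levels subtracted, the signs of NK signalling genes also turned. Without scaling again the ratios were −0.16 for *Rac2*, −0.18 for *Fcer1g* and −0.25 for *Tyrobp*, and after scaling again *Tyrobp* alone of the NK genes lay below 0, at −0.07.

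The direction of difference varied over the tissues. Of the 30 genes evaluated in all 3 tissues, 20 were lower in ovary and higher in uterus, against 22.9% of the 14683 genes evaluated in all tissues. Of these 20, 13 were also higher in liver, against 10.03% of all genes, and 7 were also lower in liver, against 12.4%. With the 50th percentile the pattern held for 19 genes, of which 8 were also higher in liver, against 2.68% of all genes, and 11 also lower, against 15.0%. With the authors' table as headed the pattern held for 2 of the 30 genes, against 3411 of the 14683 genes. *Ms4a1* was lower in all 3 tissues. In uterus its ratio was a bound from the control array alone, which by the rule for bounds could not lie above 0. More than 2 SD between spots separated the arrays for 18 of 31 genes in liver, 14 of 30 in ovary and 15 of 30 in uterus, against 28.5%, 13.2% and 19.8% of all genes. Where a gene had 2 evaluated probes, which was so for 8 genes and 22 pairs of gene and tissue, the probe ratios differed by 0.02 to 0.55, with a median of 0.20, and their signs differed in 4 pairs.

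Other genes of each lineage were described from lists of 24 genes. The other T cell genes had medians of 0.00 in liver, −0.01 in ovary and 0.21 in uterus. In liver 9 of 21 lay below 0 and 9 above, and in ovary 11 of 20 lay below 0. In liver, *Gata3*, a transcription factor of T helper cells that other cells also make, rose by 1.31 and *Lcp2*, the adaptor SLP-76, had a bound of −1.88, and in ovary *Fyb*, an adaptor of T cells and myeloid cells, fell by 1.17. The other B cell genes had medians of −0.33, −0.20 and 0.02. In liver 15 of 19 lay below 0, against 47.6% of all genes, and *Tnfrsf13c*, the BAFF receptor, fell by 1.13. In ovary 12 of 17 lay below 0, against 46.2% of all genes. There the B cell transcription factor *Spib* fell by 2.05 and the B cell coactivator *Pou2af1* by 1.07. Their BHPF ovary levels, −5.33 and −5.20, were close to the lowest level called well above background there, −5.74. The other NK genes had medians of 0.28, −0.24 and 0.14. Above 0 in liver were 15 of 20, against 49.7% of all genes, and below 0 in ovary were 14 of 20, against 46.2%. In liver the Ly49 receptor *Klra9* rose by 1.04, in ovary the inhibitory receptor *Klrg1* had a bound of −1.08, and in uterus the integrin *Itga2*, which epithelial cells also make, fell by 2.36. The genes common to leukocytes had medians of −0.53, −0.37 and 0.06.

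**Figure D4:**
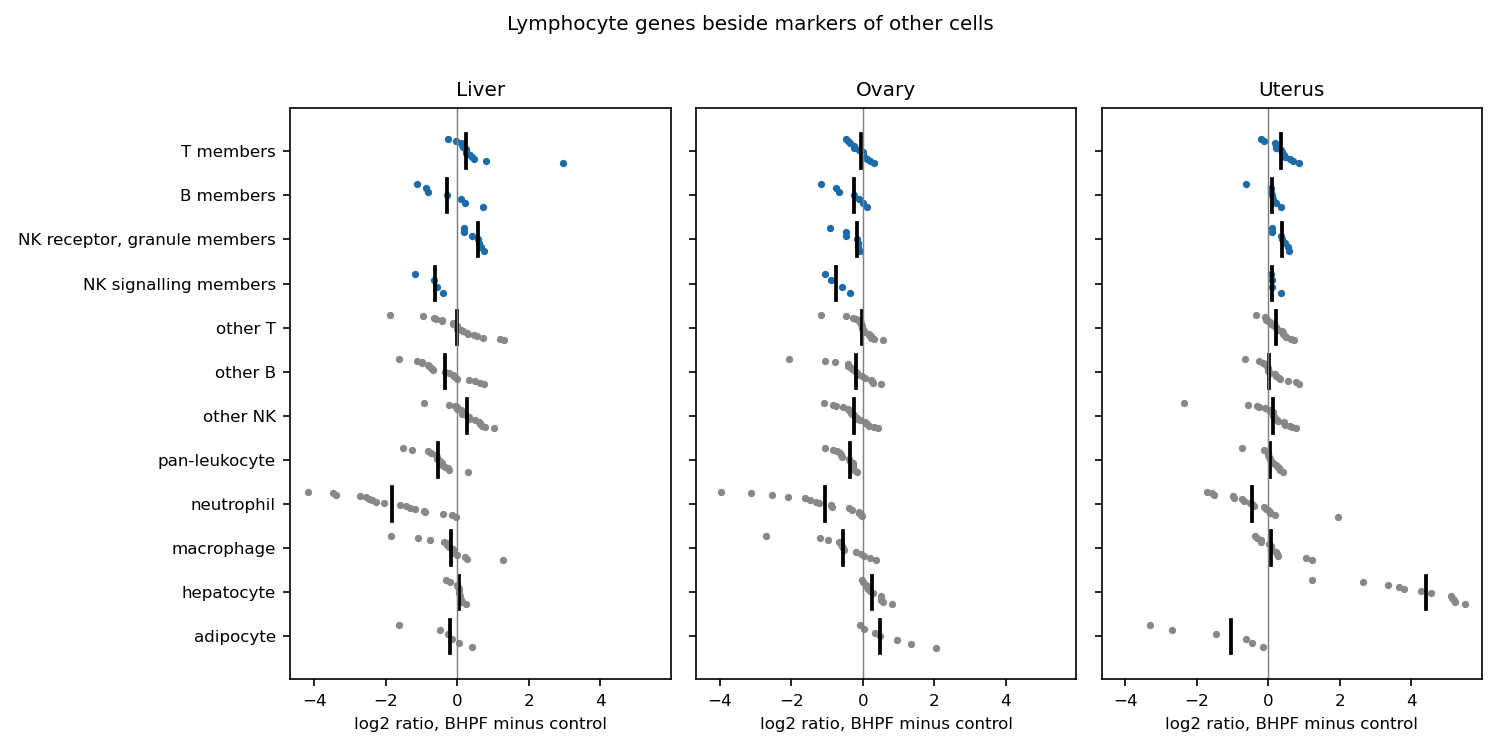
Log2 ratio (BHPF minus control) of each gene in the lymphocyte lists (blue) and in lists of other lymphocyte, leukocyte, liver and fat cell genes (grey), with a bar at the median of each list, 1 array per group. The neutrophil genes have medians of −1.82 in liver and −1.06 in ovary, below those of every lymphocyte list shown, and the hepatocyte genes have a median of 4.41 in uterus.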

How the data were processed

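RNA of each tissue, pooled from 3 mice, was measured on 1 array per group, and the groups were taken from the sample titles. Scans were extracted by the authors with Agilent Feature Extraction (version 9.1 per the labels, 11.5.1.1 per the file headers), and the deposited intensity of a spot is linear, background-subtracted and without normalization across arrays. The authors also deposited log2 values from GeneSpring, shifted by a percentile of each array. For about 99% of probes these equalled the log2 intensity minus a constant within 0.001, with the uterus columns exchanged, and they served as an alternative.

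Outlier and control spots were left out, log2 intensities were averaged over the spots of a probe, and values were centred on the 75th percentile of their array. Symbols were matched through the accession to a RefSeq table of GRCm38.p6 for 26762 of 55681 probes, while the array annotation uses mm9. Where a probe was well above background on 1 array, the dim side was the higher of its own level and the lowest level well above background, and a bound against the detected side was set to 0. With 1 array per group no test was run. The fold rule was 2-fold, and the spread between spots came from probes with at least 5 spots.

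All members are accounted for, and of the other lists the 3 brightest genes and up to 5 of those changed at least 2-fold per tissue could be named, of which some are not reported here. Members and lists were chosen with earlier results of these data known. Alternatives covered the background correction (limma 3.58.1, normexp with an offset of 50, R 4.3.3), scaling, filters, bounds, probe choice and the table, and 4 were added after seeing the data. The calculation used Python 3.11.15 with pandas 2.3.3 and was tested on simulated data.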

Additional observations from a re-analysis of the deposited data

Results flagged for a closer look

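Some lymphocyte genes lay on opposite sides of 0 in different tissues, each by more than 2 SD between spots. With 1 array per group the differences between tissues were not tested. Some fell within 2 SD under an alternative, among them *Klrd1* (0.11) and *Cd2* (0.10) in liver with the 50th percentile. Quantile normalization gave 0.17 for *Klrd1* and 0.20 for *Cd2* in liver. In ovary normexp gave −0.18 for *Cd2* and −0.28 for *Klrb1c*. *Ptpn6* in uterus was 0.02 with the liver share subtracted and 0.20 with the array then scaled again. With the authors' table as headed the uterus ratios of these genes took the opposite sign. *Cd3g* had a log2 ratio of 0.45 in uterus and −0.35 in ovary. *Cd2* had ratios of 0.42 in liver and 0.39 in uterus and a bound of −0.46 in ovary. *Klrb1c* had ratios of 0.74 in liver and 0.55 in uterus against −0.46 in ovary, and *Klrd1* had 0.42 and 0.47 against −0.46. *Gzma* had a ratio of 0.57 in uterus and −0.92 in ovary. *Ptpn6* had a ratio of 0.36 in uterus against −0.66 in liver and −0.90 in ovary.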

How the results depend on the processing

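No paired analysis was possible because each group compared within a tissue was 1 array of 1 pool. A fit with the tissue as a block, for an effect common to all tissues, was not run. With 1 array per group no array could be left out of a comparison. Of 158 comparisons of lineage medians and 2-fold counts with an alternative setting, 136 kept their value within the spread between spots or within 1.5 times the count, and 22 moved. With the 50th percentile the liver medians were −0.068 for the T cell genes, −0.59 for the B cell genes and −0.11 for the NK genes, 4 members were at least 2-fold lower in liver, and the median of all liver genes was −0.30. Quantile normalization gave a liver T cell median of 0.069. With normexp 0 members were 2-fold lower in ovary. Without a filter on dim probes the liver B cell median was −0.45, and 4 members in ovary and 1 in uterus were 2-fold lower. With own values in place of bounds, and with the uterus columns of the authors' table exchanged, 1 member was 2-fold lower in uterus. The table as headed gave uterus medians of −0.36, −0.10 and −0.36 for T, B and NK genes and 1 member 2-fold higher. Without the 4 signalling genes the NK median was 0.59 in liver and −0.17 in ovary. Subtracting the liver share without scaling again gave uterus medians of 0.19 (T) and 0.083 (NK) and 3 members 2-fold lower, against 3 after scaling again and 1 with dim remainders as bounds. These 3 forms were successive changes made after seeing the data, and the form chosen decides that count. Dim genes such as *Cd8a* and *Pax5* lie close to background, which limits their ratios.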
